A study of Mus musculus with 4 samples.

Results

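The genes described here are 10 regulators and products of fat cell formation: the transcription factor genes Cebpa, Cebpb, Cebpd and Pparg, the fat cell products Fabp4, Lpl, Cd36, Dgat2 and Adipoq, and Dlk1, which marks cells before they become fat cells. They were chosen by symbol from the 12393 genes of the array, and all 10 are on the Affymetrix Mouse Genome 430A 2.0 array, as 19 of its 22626 probe sets that are not controls. RNA of mouse CH10T1/2 fibroblasts, for which fat is one of several open fates, was measured on 4 arrays, 1 per group: the R150C line with PTHrP, the R150C line with control medium, the WT line with PTHrP and the WT line with control medium. The R150C line stably carried the R150C variant of PTHR1, the receptor for PTH and PTHrP, a variant that the labels trace to enchondromas, and the WT line stably carried the wild-type receptor. Cells of all 4 groups spent the night without serum, and PTHrP was given at 1e-07 M for 1 h. The series text gives carrier for both controls, whereas the WT control's own label says only control. Each receptor is represented by 1 transfected line, so receptor and line cannot be told apart, and precision is limited by the number of arrays.

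Fat cell formation runs as a cascade. C/EBP beta and C/EBP delta, the products of Cebpb and Cebpd, are switched on early by hormonal signals, cAMP among them, and they activate Cebpa and Pparg. C/EBP alpha and PPAR gamma then keep each other on and switch on the genes of the fat cell, such as Fabp4, Lpl, Cd36 and Adipoq. Dlk1, also called Pref-1, holds precursors back from this step.

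The upstream sequences of 3 members are shown because they cover the gene furthest below the WT line (Cebpa), an activator of it that was not called between the lines (Cebpb) and the member with the largest difference upwards among those above the filter described below (Dlk1). Each is the 250 bases before the RefSeq start, read 5′ to 3′ on the plus strand of build GRCm38.p6. They lie at chr7:35119043-35119292, chr2:167688665-167688914 and chr12:109452573-109452822. Capitals mark every match, on either strand, to 3 motifs: TGACG, the core of the cAMP response element, TTGCG, the core of a C/EBP site, and CCAAT.
Cebpa: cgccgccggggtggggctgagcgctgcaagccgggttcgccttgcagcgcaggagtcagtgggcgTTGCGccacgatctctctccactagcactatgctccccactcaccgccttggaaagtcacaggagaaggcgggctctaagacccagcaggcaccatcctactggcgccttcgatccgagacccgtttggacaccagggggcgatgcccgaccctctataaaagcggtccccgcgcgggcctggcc
Cebpb: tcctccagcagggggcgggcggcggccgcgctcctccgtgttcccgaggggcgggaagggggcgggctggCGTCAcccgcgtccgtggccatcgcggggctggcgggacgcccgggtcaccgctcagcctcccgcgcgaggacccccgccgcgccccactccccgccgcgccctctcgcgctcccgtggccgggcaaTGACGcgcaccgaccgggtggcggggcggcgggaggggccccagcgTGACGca
Dlk1: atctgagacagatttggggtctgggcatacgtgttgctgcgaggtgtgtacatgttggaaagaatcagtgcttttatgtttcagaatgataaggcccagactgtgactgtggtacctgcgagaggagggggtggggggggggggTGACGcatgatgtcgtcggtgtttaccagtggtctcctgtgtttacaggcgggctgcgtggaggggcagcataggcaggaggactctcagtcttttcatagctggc
The Cebpb sequence holds 3 matches to TGACG, which begin 180, 53 and 7 bases before the start, the first of them as CGTCA. The Cebpa sequence holds 1 match to TTGCG, 185 bases before the start, and the Dlk1 sequence 1 match to TGACG, 106 bases before it. Over all 32851 windows of this length in the RefSeq table, 17.8% hold TGACG, 14.5% hold TTGCG and 33.8% hold CCAAT. A match is a run of letters and no evidence of binding. RefSeq promoters matched 6 of the 10 genes.

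Signal here means the deposited intensity of a probe set, which is linear. Differences are on the log2(signal + 16) scale after centring of each array on the probe sets above the filter, and they understate the change of dim probe sets. A probe set was tested where its mean on that scale lay at or above the median over probe sets, which stands for a signal of 46.84. Of the 19, 10 passed, for Cebpb, Cebpd, Pparg, Fabp4, Dlk1 and Dgat2. The other 9, among them every probe set of Cebpa, Lpl, Cd36 and Adipoq, are given as values. The SD of a single difference between a pair of arrays was not measured directly. It was scaled from the departure from additivity, the line difference under PTHrP minus that in control medium, taking all of it as noise. The robust SD of this departure was 0.358 over the 11313 probe sets that passed. The SD so derived was 0.253 over them, 0.288 over those from the filter to the 75th percentile, and 0.333 below the filter.

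The plot of signal by array shows every member before any test.

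**Figure D1:**
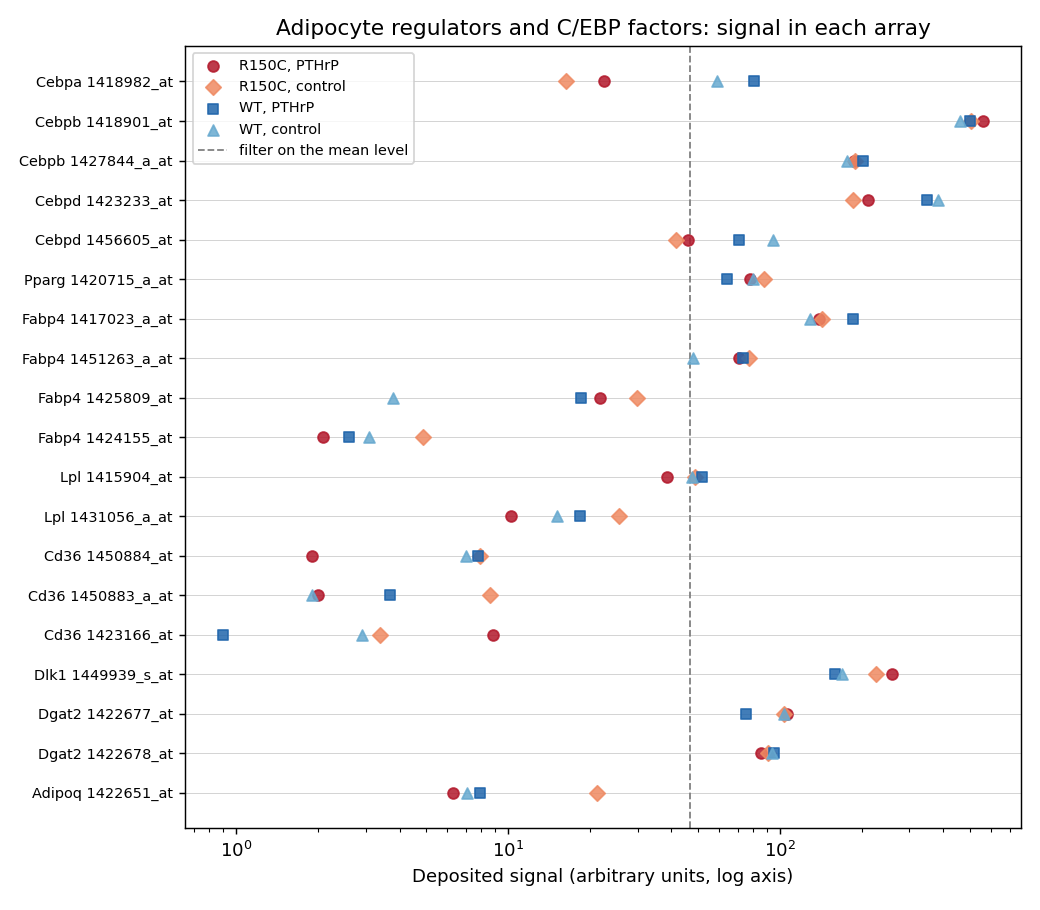
Deposited signal (arbitrary units, log axis) of each of the 19 probe sets in the 4 arrays, with the level of the filter as a dashed line. For Cebpa and both probe sets of Cebpd the R150C arrays lie left of both WT arrays, for Dlk1 they lie right of them, and Cd36 and Adipoq lie left of the dashed line in every array.

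The comparison of the lines asked how cells with the enchondroma variant differ from cells with the normal receptor in these genes. Cebpd was lower in the R150C line, Cebpa was dimmer there in both media but fell under the filter, and Cebpb, Pparg, Fabp4, Dgat2 and Dlk1 were tested and not called. Lpl, Cd36 and Adipoq were not tested. Over both media, limma's additive model with Benjamini-Hochberg adjustment called 0 of the 10 member probe sets higher and 1 lower. Over all 11313 probe sets tested the same rule called 2.96% higher and 1.18% lower, together 4.14%. An unadjusted limma p under 0.05 was reached by 3 of the 10, and by 2151 of the 11313. With 1 array per group the error of that model is only the departure from additivity.

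Cebpd encodes C/EBP delta, one of the early activators of the cascade. Its brighter probe set (1423233_at) read 211.2 and 186.4 in the R150C line (PTHrP, control) against 349.2 and 381.6 in the WT line. Both R150C values lay below both WT values, and the order held in each medium. The share of all probe sets in which the lines do not overlap was not counted. Such order, here and for the genes below, therefore carries little weight alone. The signal in the R150C line was 0.605 times that of the WT line under PTHrP and 0.488 times in control medium. The log2 difference was -0.66 under PTHrP and -0.96 in control medium, and -0.81 over both (SE 0.166), a 1.75-fold lower level on that scale, with an adjusted p of 0.0402 by limma. The call stands close to the threshold: limma's adjusted p was 0.057 with a pseudocount of 4 and 0.248 without the filter.

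The other Cebpd probe set (1456605_at) read 46.0 and 41.5 in the R150C line against 70.8 and 94.1 in the WT line, again with no overlap. Its difference over both media was -0.69 (SE 0.178), and limma's adjusted p of 0.0807 missed the threshold. Taken as the mean of its probe sets, the gene differed by -0.75 with an adjusted p of 0.000831 by limma. Both probe sets were read on the same 4 arrays, so the mean adds no replication. That setting also called more in all: 317 genes lower, where the main setting called 133 probe sets lower.

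Cebpa encodes C/EBP alpha, which acts later and sustains the mature fat cell. Its probe set (1418982_at) read 22.5 and 16.4 in the R150C line (PTHrP, control) against 80.6 and 58.9 in the WT line. The lines did not overlap, and the R150C signal was 0.279 times the WT signal under PTHrP and 0.278 times in control medium. The log2 differences, -1.30 under PTHrP and -1.19 in control medium, were the members' furthest below 0 in either medium. Its mean level stood for a signal of 38.81, so the filter kept it out of the test. Fitted without the filter over all 22626 probe sets, the difference of -1.25 had an unadjusted limma p of 0.000745 and an adjusted p of 0.129, and that fit called 10 probe sets higher and 1 lower in all.

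Cebpb encodes C/EBP beta, whose mRNA is an early target of cAMP and growth factor signals. Its brighter probe set (1418901_at) read 556.8 and 504.7 in the R150C line against 499.9 and 459.7 in the WT line. Both R150C values lay above both WT values, by a margin under the spread of single differences, with a difference over both media of 0.16 (SE 0.158) and an adjusted p of 0.618 by limma. The other probe set (1427844_a_at) read 187.8 and 189.7 against 201.8 and 176.7, so that the lines overlapped, with a difference of 0.020 and an adjusted limma p of 0.965. Without centring and after quantile normalization the sign of this small value turned.

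The 3 C/EBP genes were read on the same 4 arrays. Cebpa and Cebpd lay lower in the R150C line in both media, while the brighter Cebpb probe set lay slightly higher in both and was not called. No test was run between genes. The plot of the line difference in both media sets these values among all probe sets that passed.

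**Figure D2:**
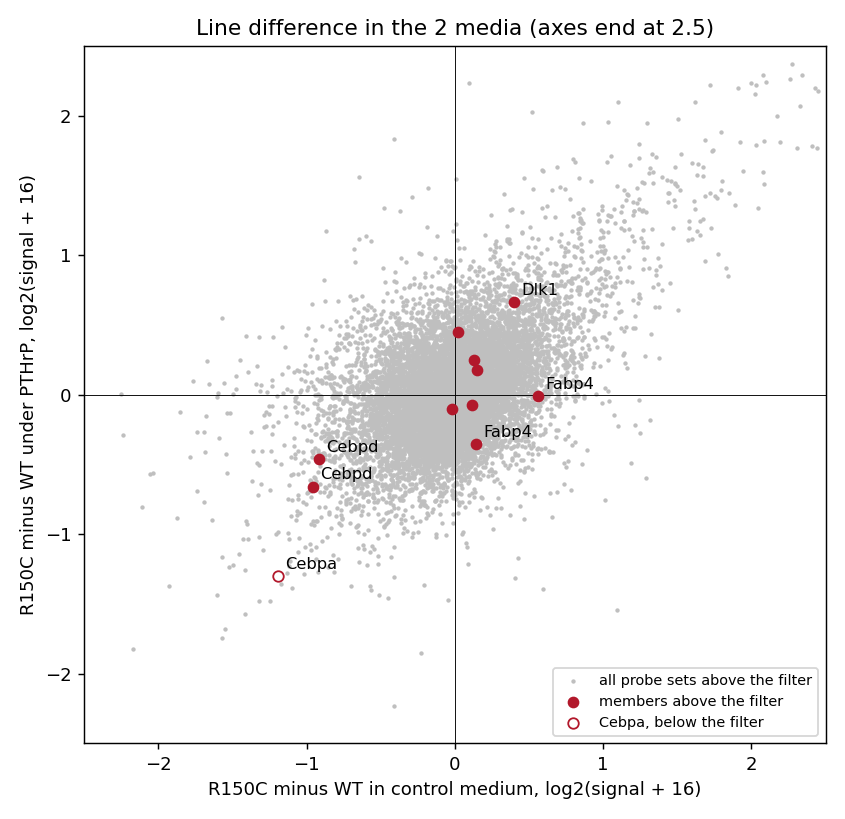
Difference R150C minus WT, on the log2(signal + 16) scale, in control medium (x axis) and under PTHrP (y axis), for the 11313 probe sets above the filter (grey), the 10 member probe sets above it (filled red) and Cebpa below it (open); 26 probe sets fall outside the axes, which end at 2.5. Both Cebpd points and Cebpa lie in the lower left, Dlk1 in the upper right, and the other members close to 0 on at least one axis.

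Pparg encodes PPAR gamma, the nuclear receptor that commits cells to fat. Its probe set (1420715_a_at) read 77.6 and 87.9 in the R150C line against 64.2 and 80.0 in the WT line. The lines overlapped, and the difference over both media was 0.19 (SE 0.159) with an adjusted p of 0.558 by limma.

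Dlk1, the inhibitor of fat cell formation, read 258.4 and 225.8 in the R150C line against 160.2 and 169.9 in the WT line (1449939_s_at). The lines did not overlap, and the R150C signal was 1.61 times the WT signal under PTHrP and 1.33 times in control medium. The log2 difference of 0.53 over both media (SE 0.165) had an unadjusted limma p of 0.0131 and an adjusted p of 0.133, which missed the threshold. Among genes taken as the mean of their probe sets the same difference had an adjusted p of 0.0200 by limma. Dlk1 has 1 probe set, so that setting adds no measurement of it, and no other setting called it.

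Fabp4 encodes the fatty acid binding protein of fat cells, also made by macrophages and some endothelium. Its brightest probe set (1417023_a_at) read 138.9 and 142.5 in the R150C line against 185.6 and 129.3 in the WT line, and the second (1451263_a_at) 71.0 and 77.2 against 73.3 and 47.9. In both of them the lines overlapped, and the WT control array read lowest. Over both media they differed by -0.11 and 0.27, with adjusted p of 0.796 and 0.474 by limma. The remaining Fabp4 probe sets were dim: 1425809_at read between 3.8 and 29.9 and 1424155_at between 2.1 and 4.9.

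Dgat2 encodes the enzyme of the last step of triglyceride synthesis. It read 105.9 and 103.9 in the R150C line against 74.9 and 103.9 in the WT line (1422677_at), and 85.4 and 90.4 against 95.0 and 93.3 with the other probe set (1422678_at). The first was level in 3 arrays and lower in the WT array with PTHrP. The 2 probe sets differed in sign over both media, at 0.23 and -0.064, with adjusted p of 0.513 and 0.871 by limma.

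Lpl encodes the lipase that releases fatty acids from lipoproteins. It read 38.4 and 48.8 in the R150C line against 51.8 and 47.4 in the WT line (1415904_at), just under the filter, and 10.3 and 25.6 against 18.4 and 15.2 with its dimmer probe set (1431056_a_at). Neither separated the lines. The fatty acid transporter gene Cd36 read between 0.9 and 8.8 with its 3 probe sets in all 4 arrays. Adipoq, the gene of the fat cell hormone adiponectin, read 6.3 and 21.2 in the R150C line against 7.9 and 7.1 in the WT line. The table has no detection calls, so whether these low readings stand above background is unknown.

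At least 2-fold differences in single contrasts occurred in 0 of the 10 tested member probe sets, in either direction and either medium. Probe sets below the filter are not in that count. Among them Cebpa differed by -1.30 under PTHrP and -1.19 in control medium, and Fabp4 1425809_at by 0.15 and 1.23. Over all probe sets tested, 2.32% were at least 2-fold higher and 0.663% at least 2-fold lower in the R150C line under PTHrP, and 2.11% and 1.4% in control medium. The median difference of the 10 was -0.042 under PTHrP and 0.12 in control medium, where the medians over all tested probe sets were 0.0004 and -0.012.

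Other genes of fat cell formation were taken from 6 lists, which were written with earlier results of these arrays known. Of 84 listed genes, 75 were on the array and 51 had a probe set that passed the filter. By limma, 6 genes had higher signal in the R150C line, 2 had lower signal and 43 were not called. In probe sets these were 11 higher (12.6%) and 2 lower (2.3%) of 87, beside the 2.96% and 1.18% over all probe sets, and the median difference of the 87 was 0.052. Without the filter limma called none of their 151 probe sets. Of the 151, 35 had an unadjusted limma p under 0.05. The count over all probe sets was not taken without the filter, so the 35 are not read as a result about these genes. With the filter that count was 2151 of all 11313 tested. The adjusted limma p of the 13 probe sets called above then ran from 0.0987 to 0.286.

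Among factors known to promote fat cell formation, 4 genes rose, 1 fell and 7 were not called of 12. Egr2, a zinc finger gene induced early in that process, read 249.7 and 295.5 in the R150C line against 73.5 and 58.8 in the WT line (difference 1.84, SE 0.180, adjusted limma p 0.00218). Klf5, a Krüppel-like factor gene that lies downstream of C/EBP beta and delta and activates Pparg, read 231.7 and 247.7 against 94.3 and 80.2 (1451021_a_at, difference 1.33). Its other probe set differed by 0.25, with an adjusted limma p of 0.441. Klf9 was called higher with each of its 3 tested probe sets, by 1.03 to 1.32, while its 4 dim ones below the filter differed by -0.026 to 0.32. Klf6, known to repress Dlk1, was called higher with 2 of 3, the brightest by 1.04. Klf6 1418280_at (0.96) was called with an adjusted limma p of 0.0471, which was 0.0563 under another scaling. Stat5a, a transcription factor gene of the hormone response, fell, with 59.5 and 39.3 in the R150C line against 109.8 and 84.5 in the WT line (difference -0.78, SE 0.159, adjusted limma p 0.0394).

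Among factors known to hold fat cell formation back, 2 genes rose, 1 fell and 10 were not called of 13. Foxc2, a forkhead gene, read 845.7 and 645.2 in the R150C line against 263.8 and 278.8 in the WT line (difference 1.42, SE 0.179, adjusted limma p 0.00583). Foxo1, a forkhead gene of insulin signalling that represses Pparg, was called higher with each of its 3 tested probe sets, by 0.83 to 1.23, and the remaining one, below the filter, differed by 0.0034. Trib3, a pseudokinase gene, was called lower with 1 probe set (difference -1.65) and not with the other (-0.55, adjusted limma p 0.238). Genes known to promote fat cell formation and genes known to restrain it were thus both among those called higher in the R150C line.

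In the other 4 lists limma called none of 3, 4, 14 and 5 tested genes. Of their 39 probe sets 5 had an unadjusted limma p under 0.05, beside 2151 of all 11313 tested. Among the probe sets above the filter, the widest differences of C/EBP partners were those of Ddit3, a C/EBP relative that blocks its partners (-0.49), and Atf4 (0.38 with the probe set further from 0). Among PPAR gamma partners and cofactors above it they were those of Rxra and Med1. Rxra differed by -0.33, and by 0.076 with its other probe set. Med1 differed by 0.31, and by 0.015 with its other tested probe set. In the lists of fat storage and of fat cell hormones the widest above the filter were Plin4, a lipid droplet coat gene (-0.68, adjusted limma p 0.0594), Angptl4, an inhibitor of Lpl (0.65, adjusted limma p 0.0877), Adipor2 (0.35) and Retn (0.26). Below the filter some untested probe sets differed more. Ppargc1b, a PPAR gamma coactivator gene, read 9.9 and 23.3 in the R150C line against 71.9 and 65.6 in the WT line (difference -1.39). Lpin1, the gene of a phosphatidate phosphatase of triglyceride synthesis, differed by -0.76 with both probe sets. Nampt differed by 0.48 with its dim probe set, but by -0.040 with its brighter, tested one (adjusted limma p 0.937). The plot of members and pathway lists shows the values above the filter.

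**Figure D3:**
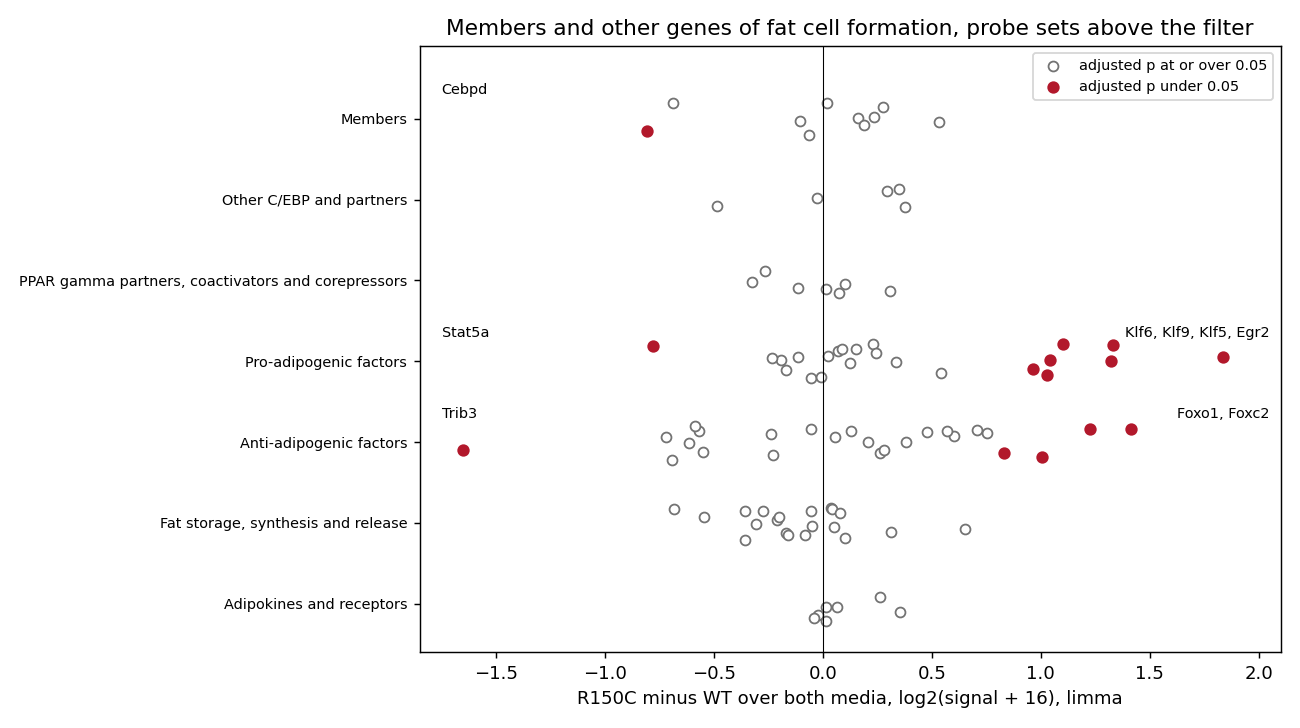
Difference R150C minus WT over both media on the log2(signal + 16) scale (x axis) for each probe set above the filter, in the members and 6 lists (rows, points spread vertically for sight only); filled points have an adjusted p under 0.05 by limma and their genes are named. The filled points lie in the members and in the lists of promoting and restraining factors, with Egr2 at 1.84 and Trib3 at -1.65 as the ends.

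The PTHrP comparison asked what 1 h of ligand does to these genes through each receptor. No member passed the test. Over both lines limma called 0 of the 10 member probe sets, and 0% of all 11313 in either direction. At an unadjusted p under 0.05 by limma there were 0 members, and 812 probe sets in all. The Gapdh control probe sets gave a 3′ to 5′ ratio of 1.21 and 1.17 in the PTHrP arrays (R150C, WT) against 0.991 and 0.845 in the control arrays, and its part in the differences was not tested.

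Cebpb, the member best known as a cAMP target, read 556.8 with PTHrP against 504.7 with control in the R150C line, and 499.9 against 459.7 in the WT line. The log2 differences were 0.14 and 0.12, both smaller than the SD of 0.253, and 0.13 over both lines with an adjusted p of 0.917 by limma. Its other probe set differed by -0.0076 and 0.18. Cebpd differed by 0.17 in the R150C line and -0.12 in the WT line with the brighter probe set, and by 0.11 and -0.34 with the other. Cebpa, below the filter, was brighter with PTHrP in both lines, by 0.25 in the R150C line and 0.37 in the WT line, of which the second slightly exceeds the SD of 0.333 of dim probe sets. Pparg differed by -0.14 and -0.26.

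Fabp4 was the member with the widest response among the tested probe sets. In the R150C line its 2 brighter probe sets read 138.9 and 71.0 with PTHrP against 142.5 and 77.2 with control. In the WT line they read 185.6 and 73.3 with PTHrP against 129.3 and 47.9 with control. The log2 differences were -0.027 and -0.094 in the R150C line, and 0.47 and 0.48 in the WT line. The WT values exceeded the derived SD of a single difference at this signal level (0.288) and the R150C values did not. With 1 array per group the difference between the lines could not be tested. Dgat2 differed by 0.030 and -0.064 in the R150C line and by -0.40 and 0.022 in the WT line, and Dlk1 by 0.19 and -0.078.

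No tested member reached 2-fold in either line in either direction. Of all probe sets tested, 0.141% were at least 2-fold higher and 0.15% at least 2-fold lower with PTHrP in the R150C line, and 0.159% and 1.8% in the WT line. Among the dim probe sets Adipoq differed by -0.73 in the R150C line and 0.049 in the WT line, on signals of 6.3 against 21.2 and 7.9 against 7.1. Lpl differed by -0.25 and 0.096 with the brighter probe set. The plot of both comparisons sets the lines and media side by side.

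**Figure D4:**
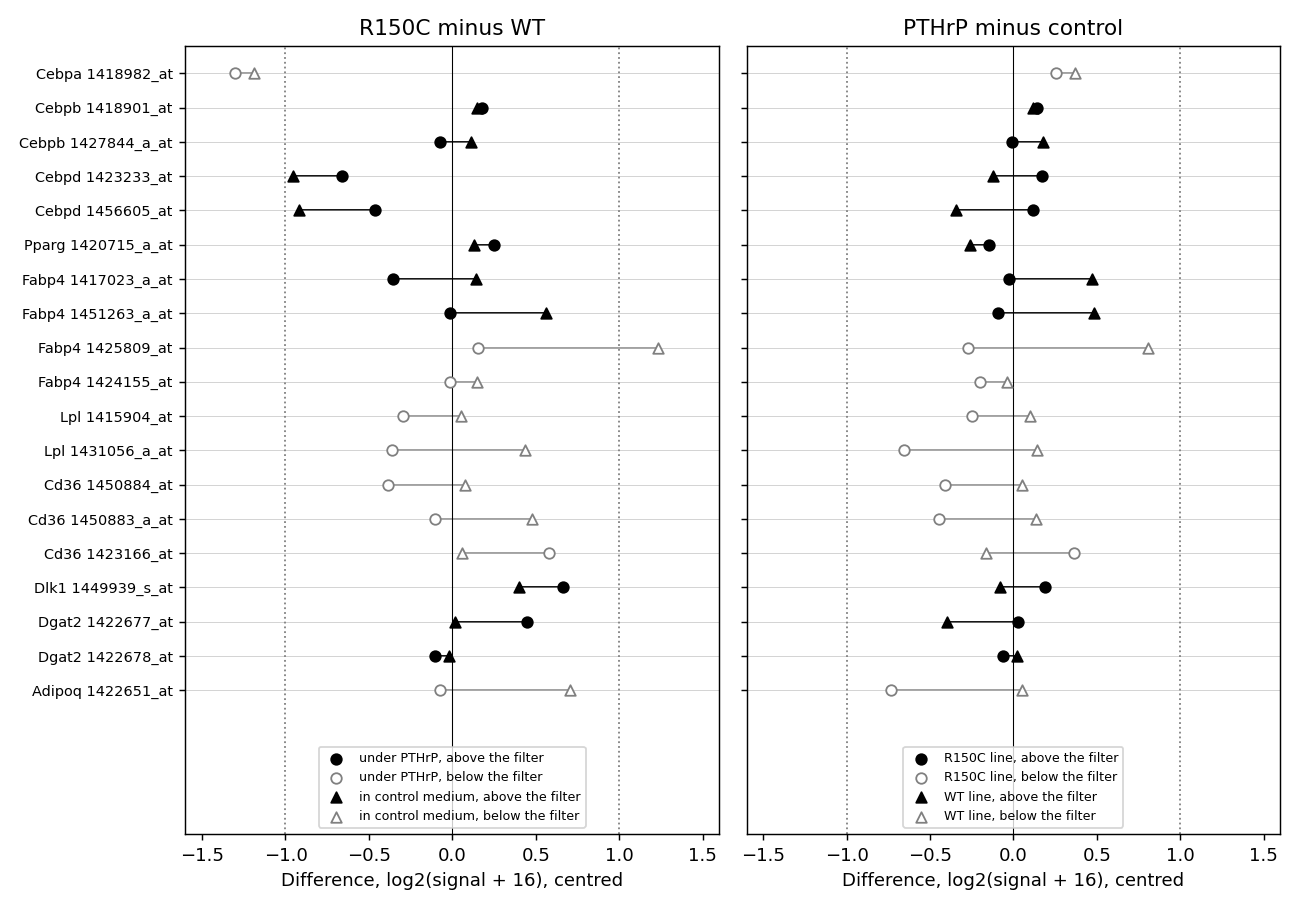
Differences on the centred log2(signal + 16) scale for the 19 probe sets: R150C minus WT in each medium (left) and PTHrP minus control in each line (right), with filled points above the filter, open points below it and dotted lines at 2-fold. On the left Cebpa and Cebpd lie furthest below 0; on the right every filled point lies between -0.40 and 0.48.

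As a check of the cell type, 8 of 10 fibroblast marker genes passed the filter, with Vim at up to 10659.2 and Col1a2 at up to 7532.6, while Dcn and Lum did not pass. Of those that passed, Fn1 was called higher in the R150C line with its dimmer probe set (difference 0.92, adjusted limma p 0.0248) and not with the brighter (0.085, adjusted limma p 0.837). Of the cartilage markers 2 of 4 passed, with Col2a1 between 1105.9 and 1481 in the 4 arrays and Sox9 at up to 200, and neither was called. Their summed signal was 1354.8 and 1783.9 in the R150C line (PTHrP, control) against 1652.3 and 1387.9 in the WT line. Of the bone markers 1 of the 2 on the array passed (Sp7), and of the muscle markers 1 of 4 (Des), neither called. Of the fat cell markers on the array only Fabp4 and Pparg passed, and Lep read between 2.8 and 6.5, Cidec between 3.3 and 11.2 and Lipe between 9.5 and 35.9. Macrophages also make Fabp4, Cd36 and Lpl, and some endothelium makes Fabp4 and Cd36. Of the macrophage and endothelial markers 2 of 7 and 1 of 5 passed. The leucocyte gene Ptprc read between 8.2 and 16.3 and the endothelial gene Pecam1 between 4.3 and 18.7. The summed signal of the macrophage markers was 347.8 and 419 in the R150C line (PTHrP, control) against 350.6 and 420.7 in the WT line, and that of the endothelial markers 125.9 and 174.7 against 109 and 139. Their part in the values of Fabp4 was not tested. In RNA of whole cultures, fewer cells of a type and less RNA per cell cannot be told apart.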

How the data were processed

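Total RNA was converted to biotinylated cRNA and hybridised to 1 array per group, per the labels' protocols. The authors deposited 1 intensity per probe set. Per the submitters' processing notes it came from Affymetrix Expression Console, with version and summary method not given in the sources used here. The trimmed mean (2% off each end) was 150.1 in every array, so a global scaling is present. Depth does not apply, and no detection calls were used. Genes were named from the platform annotation with symbols updated by Entrez identifier (20351 of 20380 probe sets with 1 symbol; 691 had several, 1555 none).

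With a pseudocount of 16, each array was centred on its median deviation from the 4-array mean over the 11313 probe sets above the filter. This replaces centring on all probe sets, which leaves those 11313 with a median PTHrP difference of 0.18 in the WT line. limma 3.58.1 (R 4.3.3) fitted receptor and treatment additively on all 4 arrays (1 residual degree of freedom), with eBayes and Benjamini-Hochberg adjustment at 0.05, two-sided. The fit was tested on simulated data. For the line difference it called 29 of 66 probe sets changed 1.5-fold, 66 of 67 changed 2-fold and 67 of 67 changed 4-fold. Of 11113 left unchanged there it called 3. Single contrasts have no test and were counted at 2-fold. Nothing in the labels shows separate cultures, so p-values reflect the spread among these arrays, which may be technical. All 10 members are named; of the other pathway genes, those called and the 2 per list with the widest difference above the filter; Ppargc1b, Lpin1 and the dim Nampt probe set, below it, were named after their values were seen. The members, lists and settings were chosen with earlier results of these data known. Alternatives varied centring, pseudocount, filter, gene summary and variance trend.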

Additional observations from a re-analysis of the deposited data

Results flagged for a closer look

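One dim probe set of Fabp4 (1425809_at) moved in opposite directions in the lines, each by more than the SD of a single difference of the tested probe sets (0.253). For dim probe sets like this one that SD was 0.333, and only the move in the WT line exceeded it. The probe set read 21.8 with PTHrP against 29.9 with control in the R150C line, a log2 difference of -0.27. In the WT line it read 18.6 against 3.8, a difference of 0.80. The response in the R150C line minus that in the WT line was -1.08. The difference was not tested, since each group has 1 array, and all 4 values lie below the filter.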

How the results depend on the processing

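Leaving out an array leaves the additive model no residual degree of freedom, so no such fit was made. The control-medium differences compare the control arrays, but the centring and the filter behind them used all 4 arrays. The additive model already compares the lines within each medium and the media within each line, and no replicate numbers allow a further block. Over both media the main setting called 335 probe sets higher and 133 lower. Of these, 0 and 1 were member probe sets, and 11 and 2 were of the other pathway genes. Centring on all probe sets gave 615 and 365, with 2 member probe sets lower, both of Cebpd, and 6 pathway probe sets lower. Without the filter there were 10 and 1 in all, 0 members lower, and 0 and 0 pathway probe sets. With a filter at the 75th percentile 6 and 1 pathway probe sets were called, and after quantile normalization 5 were lower. With the brightest probe set per gene 226 genes were lower, 5 of them pathway genes. With the mean of the probe sets 317 were lower, 5 of them pathway genes, and 1 member, Dlk1, was higher. A pseudocount of 4 left 0 members lower. For PTHrP, where the main setting called 0 and 0, centring on all probe sets gave 21 higher and 79 lower and the gene mean 8 and 17, with no member among them. At 2-fold in control medium, 1 member probe set was lower after quantile normalization and with a pseudocount of 4, and without the filter 1 was higher and 1 lower; under PTHrP 1 was lower without the filter. The 2-fold counts over all tested features, against 239 higher and 158 lower in control medium, ran from 111 to 370 and from 46 to 417. Under PTHrP (263 and 75) they ran from 120 to 458 and from 21 to 204. For PTHrP in the R150C line (16 and 17) they ran from 3 to 80 and from 0 to 165, and in the WT line (18 and 204) from 3 to 81 and from 20 to 577.

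Signs turned in members that were not called. For the line difference these were Cebpb 1427844_a_at (-0.0008 without centring, -0.011 after quantile normalization), Fabp4 1451263_a_at (-0.11 by the brightest probe set) and Dgat2 1422678_at (0.23 by the brightest, 0.085 by the gene mean). For PTHrP they were Cebpd 1423233_at (-0.045 by the gene mean), Cebpd 1456605_at (0.025 by the brightest) and Dgat2 1422678_at (0.087 centred on all probe sets, 0.048 after quantile normalization). The cause was not tested, except that gene summaries put another probe set in place of the one named. The Cebpd difference between the lines was below 0 under each of the 10 alternatives with the brighter probe set and under the 9 listed for the other. In either count the gene mean averages both probe sets, and the brightest-probe-set setting uses the brighter one. The adjusted limma p of the brighter Cebpd probe set ran from 0.00319 to 0.248 on its own values, and that of the gene mean was 0.000831. For Dlk1 the adjusted limma p ran from 0.0200 to 0.358. What depth limits could not be assessed, since no background signal is given.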
